A study of Mus musculus with 2 samples.

Results

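Gad1, Gad2, Slc32a1, Slc6a11, Abat, Gabbr1 and Gabbr2, which make, load, take up, break down and sense the transmitter GABA, were read in total RNA from hippocampus. They are 7 of 55536 annotated mouse genes and were chosen by symbol for their textbook roles. All 7 were found in each deposited table. The data hold 1 group with 2 biological replicates and no condition to compare. Both libraries were labelled as "layer of hippocampus" of male mice, strain B6CASTF1/J (an F1 cross between C57BL/6J and CAST/EiJ), at 10 days of age, and each was made from 300 ng of RNA. Each label names 3 males without saying whether they were pooled.

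Inhibitory neurons make GABA from glutamate with a pair of decarboxylases, GAD67 from Gad1 and GAD65 from Gad2, and load it into vesicles with the transporter encoded by Slc32a1. Released GABA is taken up by neurons and astrocytes and broken down in mitochondria, a step begun by the transaminase encoded by Abat. Beside the fast GABA-A channels, GABA acts on the slow GABA-B receptor, a G protein-coupled receptor that works only as a dimer of a GABA-B1 subunit, from Gabbr1, which binds GABA, and a GABA-B2 subunit, from Gabbr2, which couples to the G protein. In the postnatal hippocampus this system is still maturing.

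The libraries held 32035705 and 29747193 expected counts, that is reads assigned to rows by a model. Levels are given in TPM (a level per transcript length, scaled to 1 fixed total in each library) from 2 deposited routes, one based on alignments and one computed straight from the FASTQ file. Nuclear protein-coding genes held 46.2% and 46.1% of the alignment-based TPM, and 3 short structural RNAs (Rn7s1, Rn7s2 and Rn7sk) held 31.7% and 31.6%. The library labelled male, replicate 2, went against its label. It held 30841 counts on Xist, the RNA of the inactive X chromosome, against 25 in replicate 1, and between 0 and 2 on each of 4 Y-linked genes that held 764 to 2164 in replicate 1. This is the pattern of female tissue in replicate 2 and of male tissue in replicate 1. Every difference between the libraries below therefore cannot be told apart from a difference in sex.

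Pieces of 5 annotated transcripts carry the splice choices that the results on Gad1 and Gabbr1 turn on. They are printed 5′ to 3′ from GENCODE M21 transcripts (mm10, plus strand). In Gad1 the exon that ends at chr2:70579111-70579201 joins either the next regular exon or an extra exon with a stop codon. Lower case marks its last 30 bases and capitals what follows. In Gad1-205 the capitals run through the stop codon TGA.
Gad1-201: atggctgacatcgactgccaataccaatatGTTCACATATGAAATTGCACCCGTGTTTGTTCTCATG
Gad1-205: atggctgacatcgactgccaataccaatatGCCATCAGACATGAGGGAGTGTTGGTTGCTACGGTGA

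In Gabbr1, the long GABA-B1a and GABA-B1b transcripts have different beginnings and then share the rest of their coding sequence. Capitals in the first pair mark the first 30 shared bases, chr17:37050999-37051028. Lower case in Gabbr1-203 is the coding sequence that only the 1b start has, from its start codon, chr17:37050854-37050998, and lower case in Gabbr1-201 is the end of the 1a-specific coding sequence.
Gabbr1-203: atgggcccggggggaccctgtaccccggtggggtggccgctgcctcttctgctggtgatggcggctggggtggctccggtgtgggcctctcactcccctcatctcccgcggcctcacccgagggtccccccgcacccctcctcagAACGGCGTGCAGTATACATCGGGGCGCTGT
Gabbr1-201: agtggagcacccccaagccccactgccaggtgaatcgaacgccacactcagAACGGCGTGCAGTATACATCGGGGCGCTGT
In Gabbr1-209 the same 1a exon is not spliced at its usual end, and the 60 capitals are the first of the bases read through into the intron, chr17:37048607-37048666.
Gabbr1-209: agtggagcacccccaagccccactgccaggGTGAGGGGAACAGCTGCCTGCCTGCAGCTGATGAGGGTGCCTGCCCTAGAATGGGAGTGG

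All 7 genes stood above the median gene in both libraries. On the alignment-based scale the order was Gabbr1, Gad1, Gabbr2, Slc6a11, Abat, Gad2 and Slc32a1. The top gene stood above 98.4% and the bottom gene above 70.6% of the 13062 nuclear protein-coding genes detected at a TPM of at least 1 in both libraries, whose median was 15.7 TPM. The 2 libraries of each gene did not overlap those of its neighbours in that order. For Gad1 and Gabbr2, whose means differed by a factor of 1.04, the credibility intervals that the authors deposited did overlap, at 84.2 to 98.9 and 87.0 to 90.7 TPM in replicate 1. In whole tissue, fewer cells of a type and less RNA per cell cannot be told apart.

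**Figure D1:**
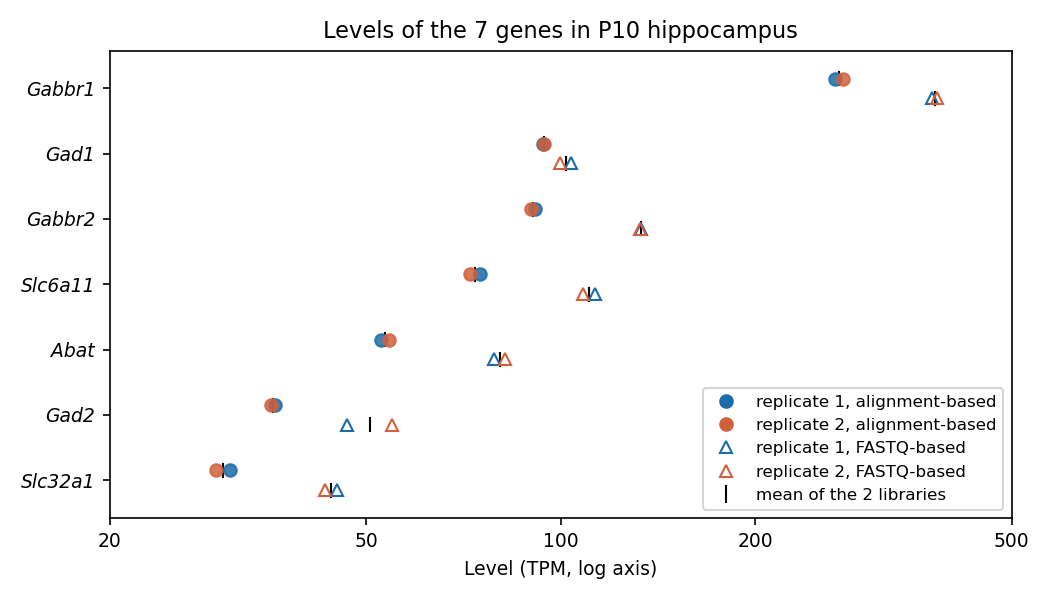
Level of each gene (TPM, log axis) in both libraries by the alignment-based route (filled circles) and the FASTQ-based route (open triangles), with the mean of each pair as a bar. Gabbr1 leads by both routes, and Gad1 is the gene whose 2 routes lie closest together, at means of 94.1 and 101.8 TPM.

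Gad1 (ENSMUSG00000070880.10, chr2:70553072-70602014, plus strand) encodes the decarboxylase found through the whole neuron. Its level was 93.9 TPM in replicate 1 and 94.3 in replicate 2, or 94.1 ± 0.255 (SD, n = 2), from 4643 and 4204 counts. Gad2 (ENSMUSG00000026787.3, chr2:22622205-22693874, plus strand) encodes the decarboxylase bound to synaptic vesicles at nerve endings. It stood at 36.1 and 35.6 TPM, or 35.8 ± 0.354, from 4007 and 3606 counts. Gad1 was thus the higher in both libraries by a log2 ratio of 1.39 ± 0.02, or 2.62-fold. This ratio depended on how Gad1 reads were spread over its transcripts, as follows.

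Of the 8 annotated Gad1 transcripts only Gad1-201 encodes the complete enzyme of 593 residues. It held 35.7 and 37.5 TPM, 38.0% and 39.8% of the gene's alignment-based TPM. By the FASTQ-based route it held 84.6 and 87.3 TPM, 81.5% and 87.6% of the gene. The gap of 45.7 percentage points between the routes compares with a median of 7.11 points over the principal transcripts of 5979 genes, of which 3.2% had a gap at least as large.

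The rest of the alignment-based TPM lay mainly on 2 models that overlap Gad1-201 in sequence. Gad1-206 has no annotated coding sequence, and 2919 of its 2996 bases lie in exons of Gad1-201. It held 26.8 and 23.6 TPM by alignments, against 4.71 and 0.000798 by the FASTQ-based route. Gad1-204 is a short model of 398 bases that starts 8970 bases upstream of Gad1-201, its coding sequence is open at the 3′ end, and 346 of its bases lie in Gad1-201 exons. It received only 142 and 160 counts, 3.06% and 3.80% of the gene's counts, yet 21.9 and 26.5 TPM, 23.4% and 28.1% of the gene's TPM, because TPM divides by an effective length of only 299 bases. The FASTQ-based route gave it 0 counts in both libraries. Gad1-202, whose coding sequence is also open at the 3′ end, held 6.03 and 3.94 TPM. The deposited posterior SD was 195 and 211 counts for Gad1-201, on 2517 and 2458 counts, while for the whole gene it was 0.23 and 0.24 counts. The uncertain step is thus the division among Gad1 transcripts and not the assignment to Gad1.

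Truncated Gad1 messages were scarce. The extra exon at chr2:70584420-70584499 has 80 bases, of which 34 extend the reading frame before the stop codon printed above, which leaves an annotated coding sequence of 223 residues without the catalytic part. Messages with this exon are known from embryonic brain. The annotation has 3 transcripts with this coding end, Gad1-205, Gad1-203 and Gad1-207. Together they held 2.40 and 1.74 TPM, 2.56% and 1.85% of the gene, all of it on Gad1-205, in which the exon continues to a length of 702 bases. By the FASTQ-based route they held 3.47% and 3.98%. Gad1-203, in which the 80-base exon is spliced on to the next exon, was listed at 0 in 3 of the 4 library and route combinations and at 1.27 TPM in replicate 2 by the FASTQ-based route. Gad1-207 was at 0 in all 4. The reads on Gad1-205 amounted to 83.6 and 56.2 counts.

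**Figure D2:**
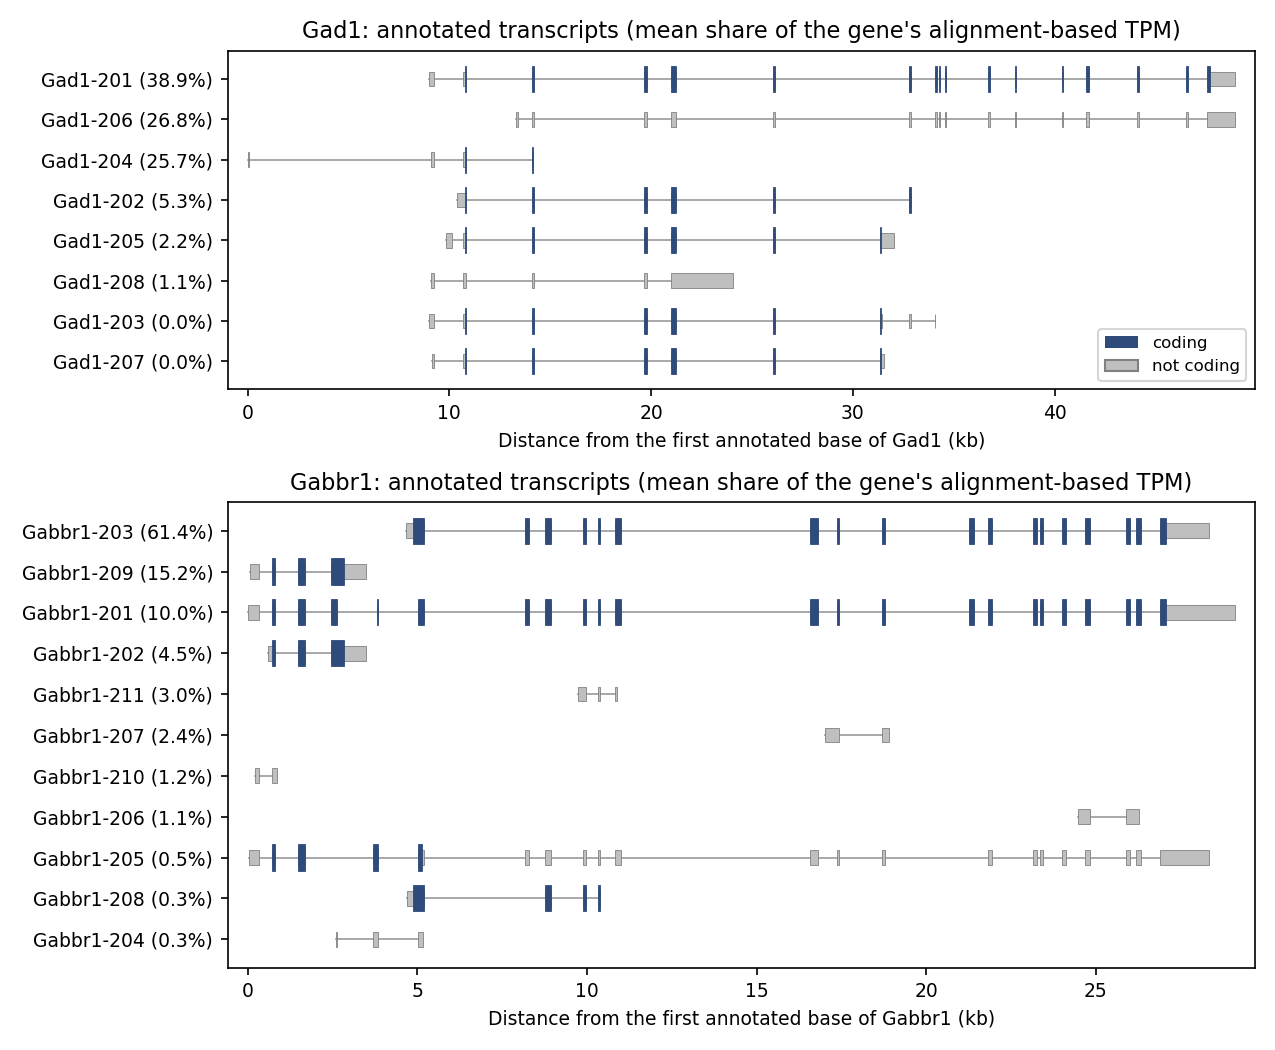
Annotated transcripts of Gad1 (top) and Gabbr1 (bottom), drawn to scale as kilobases from the first annotated base of the gene, with tall dark boxes for coding and short grey boxes for non-coding exon parts; outlines make the smallest exons visible. The share after each name is the mean of 2 libraries by alignments: 38.9% for Gad1-201, 26.8% for Gad1-206 and 61.4% for Gabbr1-203.

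Gad2 was simpler. Gad2-201, which encodes the whole enzyme of 585 residues, held 32.3 and 31.2 TPM, 88.8% ± 1.28 of the gene. The other transcript, Gad2-202, has no coding sequence and held 3.73 and 4.32 TPM by alignments. By the FASTQ-based route it was at 2.47e-09 TPM in replicate 1 and 9.84 TPM in replicate 2, so the whole-gene FASTQ-based level of Gad2, 46.6 and 54.8 TPM, differed between the libraries while that of Gad2-201, 46.6 and 45.0 TPM, hardly did.

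Counting only the transcripts that encode the complete enzymes, Gad1 over Gad2 was 0.20 ± 0.09 on the log2 scale by alignments and 0.91 ± 0.07 by the FASTQ-based route. If Gad1-201 and Gad1-206, which share most of their bases, were added together, the sum was 62.5 and 61.1 TPM by alignments and 89.3 and 87.3 TPM from the FASTQ file. The log2 ratio of this sum to Gad2-201 was 0.96 ± 0.01 and 0.95 ± 0.01, so the routes differed by no more than the SD over the libraries. This sum was formed after the values had been seen. On the TPM scale Gad1 was the higher in both libraries in each of these comparisons, from log2 0.14 in replicate 1 for the complete enzymes by alignments to 1.40 in replicate 2 for the whole genes. From counts not divided by length, Gad1-201 was the lower, at -0.65 and -0.53 against Gad2-201, which is the longer message. The longest run of identical bases between Gad1-201 and Gad2-201 was 17 bases.

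**Figure D3:**
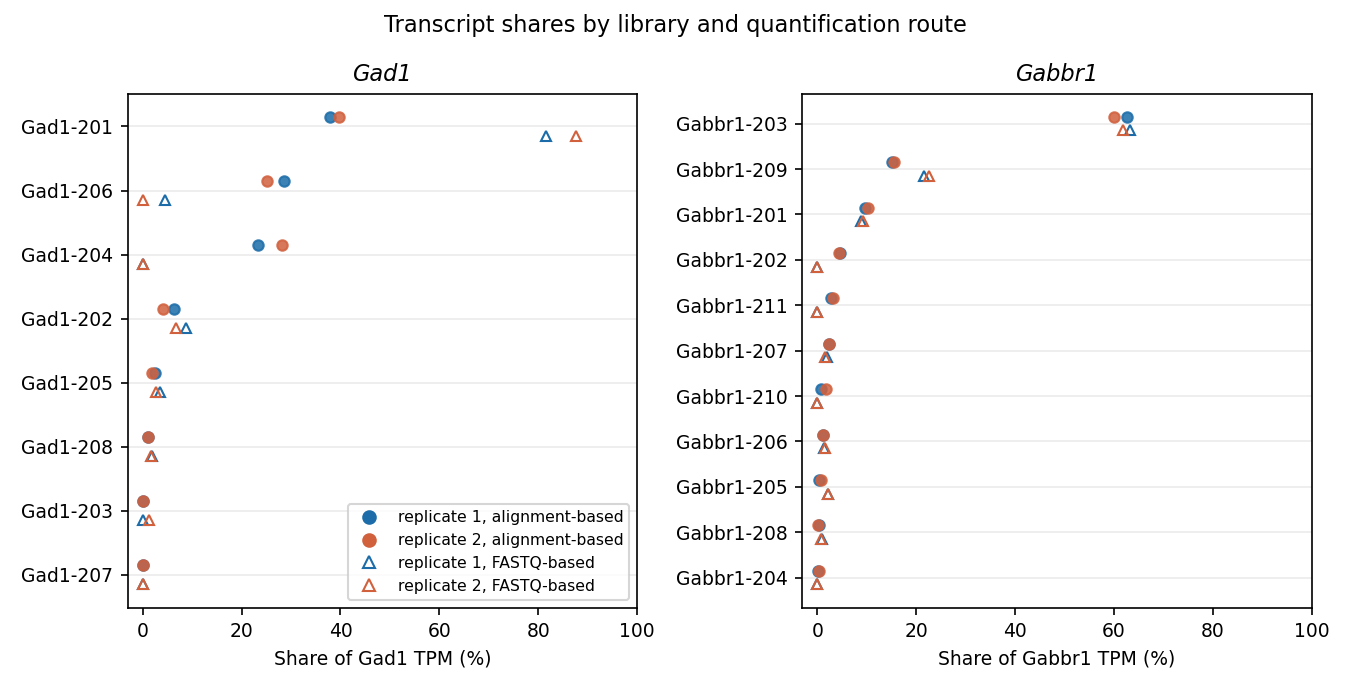
Share of each annotated transcript in its gene's TPM (%) for Gad1 (left) and Gabbr1 (right), by library (colour) and route (circles alignment-based, triangles FASTQ-based). The routes part for Gad1-201, at 38.9% and 84.5% on average, and lie close for Gabbr1-203, at 61.4% and 62.5%.

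Slc32a1 (ENSMUSG00000037771.11, chr2:158610767-158615748, plus strand) encodes the transporter that fills vesicles with GABA or glycine. It was the lowest of the 7, at 30.8 TPM in replicate 1 and 29.2 in replicate 2 (29.97 ± 1.10). Its 1799 and 1586 counts have exact Poisson intervals of 1717 to 1884 and 1509 to 1666, which cover counting error only. The gene has 1 annotated transcript, which encodes 525 residues, so no division among transcripts enters its level. Slc32a1 over Gad2 was -0.26 ± 0.04 on the log2 scale, and -0.08 ± 0.02 against Gad2-201 alone, or -0.07 in replicate 1 and -0.10 in replicate 2. Slc32a1 over Gad1 was -1.65 ± 0.06, and -0.29 ± 0.10 against Gad1-201 by alignments or -0.96 ± 0.08 by the FASTQ-based route. Slc32a1 was below both decarboxylase genes in each of these. An antisense gene, Gm14205, shares 697 exon bases with Slc32a1 and held 1 and 2 counts. The sources used here do not say whether counting used strand, and sharing of reads by this pair was not tested. The deposited posterior SD of the Slc32a1 counts was 0 in both libraries.

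Slc6a11 (ENSMUSG00000030307.8, chr6:114131241-114249952, plus strand) encodes GAT-3, the GABA transporter typical of astrocytes. It stood at 75.0 and 72.2 TPM, or 73.6 ± 1.93, from 6488 and 5817 counts. Slc6a11-201, with 627 residues, held 98.8% ± 0.16 of it, and the rest lay on a model with a retained intron. Abat (ENSMUSG00000057880.12, chr16:8513429-8621568, plus strand) encodes GABA transaminase, which is present in neurons and astrocytes. Its level was 52.7 and 54.3 TPM, or 53.5 ± 1.12, from 5036 and 4798 counts. Of its 7 transcripts Abat-201, with 500 residues, held 94.4% ± 0.73. Abat-203 lacks an exon of 168 bases, chr16:8611127-8611294, which leaves 444 residues, and held 1.67 and 2.42 TPM. Slc6a11 was above Abat in both libraries, by log2 0.51 in replicate 1 and 0.41 in replicate 2, and by a mean of 0.46 by each route.

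Gabbr1 (ENSMUSG00000024462.17, chr17:37045966-37075067, plus strand) was the highest of the 7. It stood at 266 TPM in replicate 1 and 273 in replicate 2 (269.9 ± 4.89), from 19086 and 17864 counts. Gabbr2 (ENSMUSG00000039809.10, chr4:46662305-46991873, minus strand) stood at 91.2 and 90.0 TPM (90.6 ± 0.877), from 11021 and 10199 counts. The message of the GABA-binding subunit therefore exceeded that of its obligate partner by log2 1.57 ± 0.04, or 2.98-fold. Nearly all of Gabbr2, 98.9% ± 0.786, lay on Gabbr2-201, which encodes 940 residues. The longest run of identical bases between Gabbr1-201 and Gabbr2-201 was 43 bases.

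Part of the Gabbr1 TPM lay on models that encode no whole receptor subunit. Its 11 annotated transcripts include 2 with a full coding length, Gabbr1-203 for GABA-B1b with 844 residues and Gabbr1-201 for GABA-B1a with 960 residues. Together these held 193 and 192 TPM, 72.4% and 70.3% of the gene, and 72.0% and 71.1% by the FASTQ-based route. Their share of the gene's counts was 89.9% and 89.1%, since most of the other models are shorter. Restricted to them, Gabbr1 over Gabbr2 was log2 1.10 ± 0.00 by alignments and 1.04 ± 0.01 by the FASTQ-based route, or 2.15- and 2.05-fold. Transcripts with a retained intron held 7.0% and 8.53% by alignments and 3.36% and 3.33% by the FASTQ-based route.

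The message for GABA-B1b was the higher of the 2 full-length forms of Gabbr1, and the proteins were not measured. The 2 proteins differ at their outer end: GABA-B1a carries a pair of sushi domains, which bind secreted or membrane proteins, and GABA-B1b lacks them. Gabbr1-203 held 167 and 164 TPM, 61.4% ± 1.86 of the gene, and 62.5% ± 1.0 by the FASTQ-based route. Gabbr1-201 held 25.99 and 28.01 TPM, 10.0% ± 0.347, and 9.04% ± 0.338. The 1b form thus exceeded the 1a form by log2 2.61 ± 0.09, or 6.12-fold, and by 2.79 ± 0.08 by the FASTQ-based route. Both routes and both libraries gave this order. Gabbr1-201 is the transcript that the annotation marks as principal. Among the principal transcripts of the 5979 genes, 4.9% had an alignment-based share at or below its share.

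Grouped by annotated start, the Gabbr1 models gave a less uneven picture than the full-length forms. The ends of messages were not measured, so these are shares of models and not of start-site use. The first base of Gabbr1-203 lies 4665 bases downstream of that of Gabbr1-201, inside an intron of the 1a message. The 1a start here covers every model whose first base lies upstream of the later exons of Gabbr1-201. Its models do not share a first base. Transcripts that begin at the 1b start held 63.1% and 60.3% of Gabbr1 TPM, and those of the 1a start 30.4% and 32.6%. By the FASTQ-based route these were 64.2% and 62.5% for 1b and 32.5% and 34.1% for 1a. The difference between start group and full-length form lies mainly in Gabbr1-209 and Gabbr1-202. They belong to the 1a start group, with first bases at chr17:37046028 and chr17:37046568, against chr17:37045966 for Gabbr1-201. Both run through the end of the exon printed above and stop after 229 residues, so that they lack the part shared with 1b. In Gabbr1-209 this exon has 1047 bases, against 186 in Gabbr1-201, and the added bases lie in an intron of Gabbr1-201. The libraries are of total RNA, and whether reads there came from unspliced RNA was not tested. Together they held 52.2 and 54.3 TPM, 19.6% and 19.9% of the gene, more TPM than Gabbr1-201 in both libraries. In the FASTQ-based table all of this, 80.9 and 86.9 TPM, lay on Gabbr1-209, and Gabbr1-202 was at 0. By counts the order turned: they held 8.69% and 8.97% of the gene's counts against 15.2% and 16.3% for Gabbr1-201, which is longer. The long forms also differ at the other end, where Gabbr1-201 is annotated with 763 more bases, chr17:37074305-37075067, so that its effective length and TPM depend on that annotated end. Whether messages from the 1b start use it too was not tested.

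**Figure D4:**
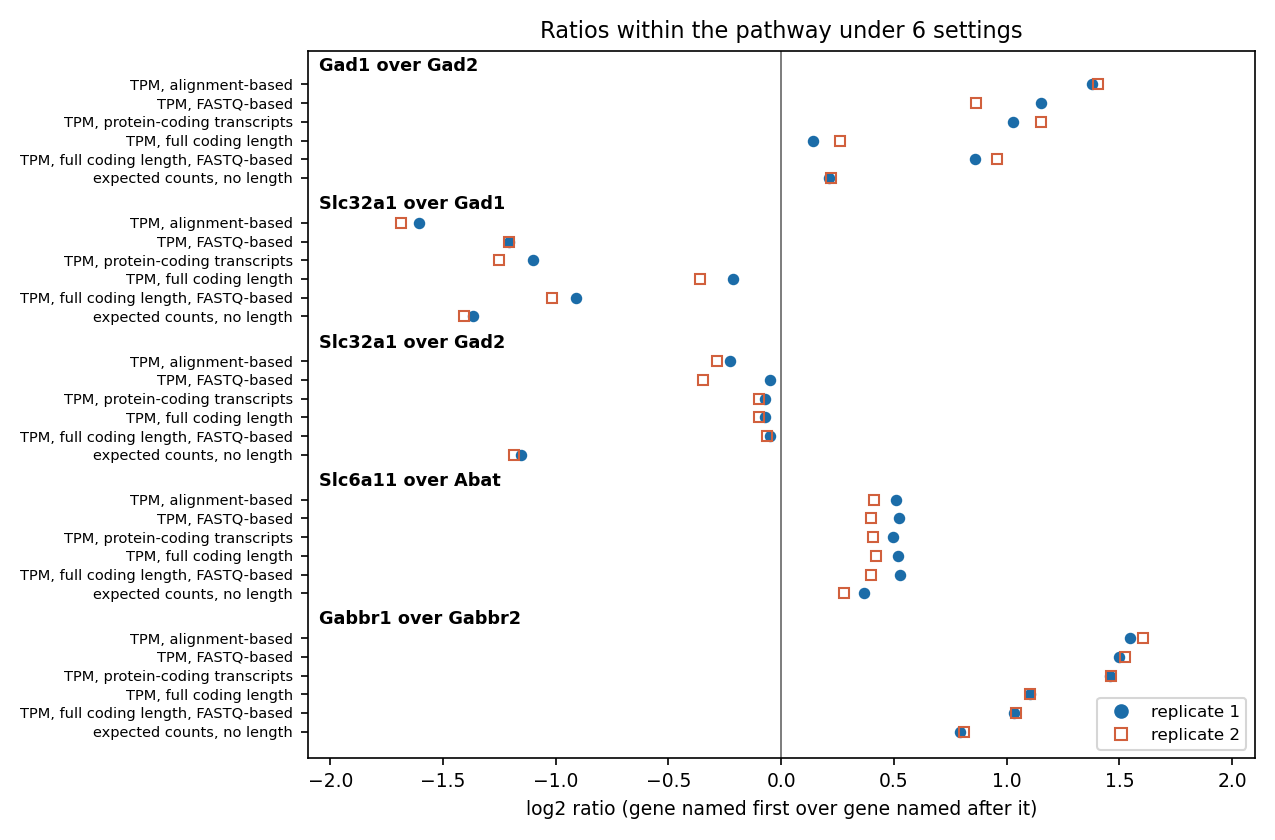
Log2 ratios of 5 gene pairs in replicate 1 (circles) and replicate 2 (squares) under 6 ways of counting. No plotted ratio changes sign, and the ratios with Gad1 vary most with the transcripts counted: alignment-based Gad1 over Gad2 is 0.20 for full coding length and 1.39 for the whole gene, and Slc32a1 over Gad1 is -0.29 and -1.65.

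The FASTQ-based TPM was higher than the alignment-based one for protein-coding genes in general, by a median of log2 0.62 over 14205 genes. For 6 of the 7 genes the gap lay within 0.13 of that median. Gad1 lay 0.51 below it, a distance exceeded by 11.1% of genes. In the FASTQ-based order Gad1 accordingly came after Gabbr2 and Slc6a11, at 103.8 and 99.7 TPM against 133 in each library for Gabbr2 and 113 and 108 for Slc6a11. The order of the other 6 genes was the same by both routes.

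The 7 genes differed little between the libraries. The log2 ratio of replicate 2 to replicate 1 after scaling ran from -0.07 for Slc32a1 to 0.04 for Abat, and the median absolute value was 0.04 against 0.07 over all genes tested. These medians are not matched on counts. The genes tested reach down to a mean count of 100, and with a minimum of 10 their median was 0.10. A two-sided exact binomial test of the counts with Benjamini-Hochberg adjustment called 0 of the 7 at an adjusted p under 0.05, where 11.8% of the 12881 genes tested were called, and 0.303% with at least a 2-fold difference as well. Adjusted p ranged from 0.315 for Slc6a11 to 0.990 for Gabbr2 in this exact test. At an unadjusted p under 0.05 it had 0 of the 7, as had edgeR's exact test, whose dispersion came from these same 2 libraries. On FASTQ-based counts the binomial test had 2 of 7 at that level, Slc6a11 and Abat, and called 0. The counting intervals reach at most 1.12-fold, for Slc32a1, so larger differences between these libraries lie outside them. The test compares the reads of 2 libraries and not conditions.

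**Figure D5:**
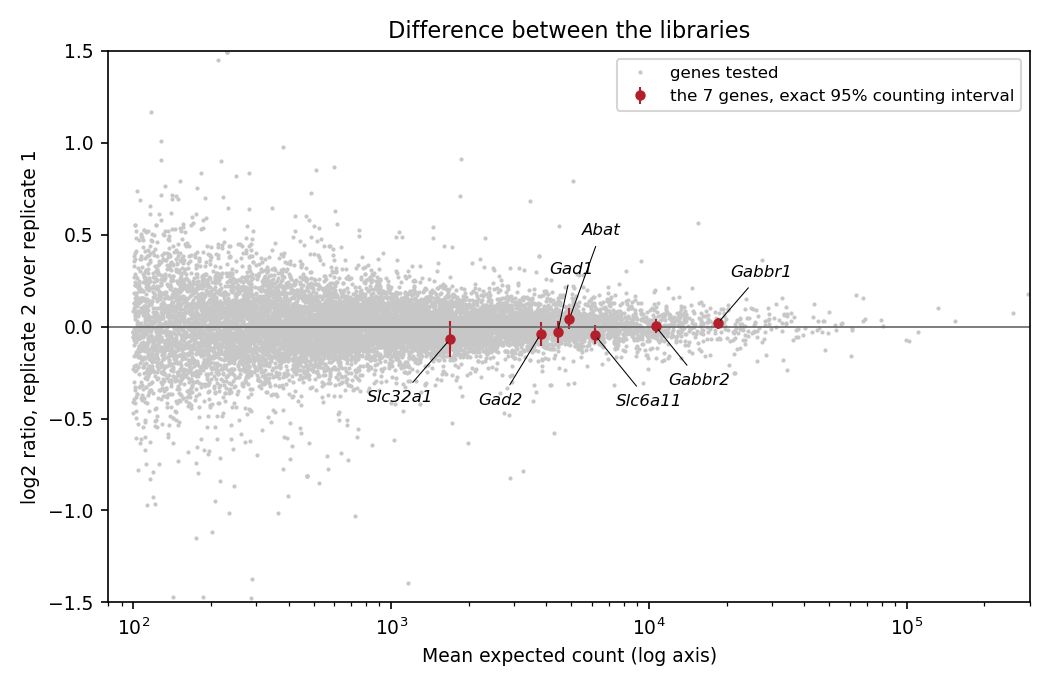
Log2 ratio of replicate 2 over replicate 1 against the mean expected count (log axis) for all genes tested (grey) and the 7 genes (red, with exact 95% counting intervals); 27 genes lie outside the axes. The 7 genes sit between -0.07 and 0.04, near the line of no difference.

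Of 28 further genes of the pathway, 27 were detected in both libraries, and the same exact test called 6 higher and 3 lower in replicate 2, where 11.8% of all genes tested were called. Of genes with many counts the test calls small differences. None of these 9 differed 2-fold, and edgeR's exact test with a common dispersion called 0 of the 27 tested. That dispersion was estimated from these same libraries, so it holds the differences under test. Over all 12881 genes tested edgeR's test called 84. Its 0 calls here therefore do not show that these genes are alike in the libraries. Slc6a12, with 67 and 30 counts, was below the filter and not tested. The median log2 ratio was 0.02, against 0.00 over all genes tested.

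Among the genes of uptake and breakdown, the succinic semialdehyde dehydrogenase gene Aldh5a1, which acts after Abat, stood at 29.9 ± 0.0778 TPM. Aldh9a1 and Maob, enzymes of a route from putrescine to GABA, stood at 11.1 ± 0.219 and 3.74 ± 0.417 TPM. The transporter genes Slc6a13 (GAT-2) and Slc6a12 (BGT1) were low, at 6.45 ± 1.66 and 1.38 ± 0.813 TPM (1.95 and 0.8 in the 2 libraries for Slc6a12), so that Slc6a11 was the highest of these 3 uptake genes. Slc6a13, with 311 and 202 counts, was lower in replicate 2 by log2 0.51 (adjusted p = 0.0015 in the exact test), the only call among the 4 tested in this group. Slc6a13 is known from the meninges, and 3 of 4 meningeal markers were also lower in replicate 2, with summed levels of 181 and 148 TPM. Their part in the difference was not tested.

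Genes that supply glutamate and the pyridoxal phosphate cofactor were all detected, 8 of 8. Glul, the glutamine synthetase of astrocytes, was the highest at 471 and 402 TPM. Glul and the glutamine carrier Slc38a2 (33.1 and 26.7 TPM) were called lower in replicate 2 by the exact binomial test, and not by that of edgeR. The carriers Slc38a1 (35.3 and 38.0), Slc38a3 (43.3 and 50.1) and Slc38a5 (7.88 and 9.07) and the pyridoxal kinase gene Pdxk (25.7 and 28.1) were called higher by the binomial test alone. Partners of GAD65 at the vesicle were present, Dnajc5 at 130.1 ± 3.54 and the palmitoyltransferase gene Zdhhc17 at 35.3 ± 2.26 TPM, and neither was called.

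The auxiliary subunits of the GABA-B receptor, KCTD proteins that shape the speed and decay of its response, were unequal. Kctd12 led at 46.8 ± 0.318 TPM, followed by Kctd16 at 26.2 ± 0.743, while Kctd12b stood at 3.43 ± 0.453 and Kctd8 at 3.25 ± 0.191. Summed over the 4 genes they reached 79.1 and 80.1 TPM, below Gabbr2 alone. Of the proteins that bind the sushi domains of GABA-B1a, App stood at 517 ± 2.29 TPM, Pianp at 50.6 ± 2.09 and Ajap1 at 13.6 ± 1.41. None of these 7 genes was called.

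The receptor's effectors were all detected, 6 of 6. Gnao1, which encodes the G protein subunit most abundant in brain, stood at 411 and 423 TPM and was called higher in replicate 2 by log2 0.05. The inhibitory G protein genes Gnai2 and Gnai1 stood at 113 ± 0.608 and 89.0 ± 0.460 TPM. Of the potassium channel genes opened by the receptor, Kcnj3 stood at 30.4 and 32.9 TPM and was called higher by log2 0.11. Kcnj6 (27.8 ± 0.870 TPM) and Kcnj9 (17.8 ± 0.778 TPM) were not called.

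Markers of the cell types that use these genes were present. The calls given for markers are those of the exact binomial test, which called 11.8% of all genes tested; edgeR's exact test called 0 in each list except 4 of the oligodendrocyte and 1 of the choroid plexus markers. All 11 of 11 GABAergic neuron markers were detected, from 2.83 TPM for Dlx5 to 214 for the neuropeptide gene Sst, followed by Npy at 44.7, with summed levels of 324 and 318 TPM. Of the 8 tested, 1 was called, Lhx6, lower in replicate 2 at 9.84 against 11.9 TPM; it is named because it was the call. Excitatory neuron markers (5 of 5, led by Camk2a at 835 and Slc17a7 at 530 TPM) summed to 1474 and 1613 TPM, with 2 higher. Astrocyte markers (7 of 7, led by Slc1a2 at 695 and Aldoc at 202 TPM) summed to 1424 and 1499, with 3 higher and 1 lower. The lists hold no gene that marks hippocampus against neighbouring cortex, so the label was checked at the level of cell types only.

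Some other cell types differed more between the libraries than the GABA genes did. Oligodendrocyte markers (5 of 5 detected, led by Mbp) summed to 156 and 281 TPM, and 4 of the 4 tested were higher in replicate 2. Choroid plexus markers (2 of 5 detected) summed to 10.7 and 350.1 TPM, nearly all of it in replicate 2 on Ttr, at 8.02 and 340.1. Of the 2 tested, 1 was called, Ttr, higher in replicate 2, and the other detected marker was not called. Folr1, at 0.590 and 4.97, and Kcne2, at 0.0600 and 0.870, missed the detection rule and had too few counts to be tested. The same held for the last of the 5, at 0.25 and 2.1 TPM. Microglial markers (4 of 4, led by Csf1r and P2ry12) summed to 67.5 and 79.5 TPM with 3 higher. Endothelial markers (3 of 3, led by Cldn5 and Flt1) summed to 60.5 and 61.5 with 1 higher, and meningeal markers (4 of 4) were led by Igf2 and Dcn. The part of these differences in the values of the 7 genes was not tested.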

How the data were processed

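Total RNA sequencing libraries of 1 group with 2 biological replicates were used, as given by the labels. The authors deposited gene and transcript tables with expected counts and TPM from alignments to mm10 with the M21 annotation, and a FASTQ-based transcript table with estimated counts and TPM, per the deposited descriptions. TPM deposited by the authors are scaled over all rows of a table. Tool names and the use of strand are not stated in the sources used here, and the columns are named as RSEM and kallisto name theirs. Deposited intervals and posterior SDs were used as given and can lie beside the listed TPM. The 97 spike-in rows and 26248 numbered rows entered neither library sizes nor tests (2.81e-05% and 2.00e-05% of counts lay on numbered rows).

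Depth was 32035705 and 29747193 expected counts over all rows. The counts on annotated genes, 31920933 and 29640307 in total, were rounded before tests. FASTQ-based gene values are sums over transcripts. Transcript structure and sequence came from GENCODE M21. An exact two-sided binomial test after TMM scaling (edgeR 4.0.16, R 4.3.3) compared the libraries for genes whose mean count was 100 or more, with Benjamini-Hochberg adjustment over all genes tested. Quasi-likelihood tests have no residual degrees of freedom here. Full coding length means a complete coding sequence of at least 80% of the longest. Ratios use log2(TPM + 0.1), and have no test, since 2 libraries allow a two-sided sign-flip p of 0.5 at the lowest. Intervals at 95% cover counting error only. The binomial test was run on simulated Poisson counts, where it called 64% of 1.2-fold and 100% of 1.5-fold changes. That simulation has the spread that the test assumes and none beyond counting. It therefore does not show how the test behaves on the spread of these libraries. Tables and figures were made in Python 3.11.15 with numpy 2.4.6, pandas 2.3.3, matplotlib 3.10.9 and scipy 1.17.1.

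The members, lists, rules and tests were chosen with earlier results of these data known. Named were the 7 genes, each transcript with at least 5% of its gene's TPM in any library and route, all pathway genes, and the 2 highest markers of each list; other names were picked with their values in view. Some single genes of these lists are not reported here, while counts and sums include all members. Results were recomputed with the FASTQ-based route, TPM rescaled over nuclear protein-coding genes, other pseudocounts, filters, scalings (library totals, DESeq2 1.42.0 size factors), edgeR's exact test, transcript classes and single libraries. The label of replicates as biological is taken from the deposit. The p-values of the binomial test measure only the counting error between these libraries. Those of edgeR's exact test also include a common dispersion estimated from these same libraries. Alleles of the hybrid, and any difference between them in alignment, were not analysed here.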

Additional observations from a re-analysis of the deposited data

How the results depend on the processing

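TPM levels moved with the route and the denominator. Means by the FASTQ-based route were 101.8 for Gad1, 50.7 for Gad2, 44.0 for Slc32a1, 110.6 for Slc6a11, 80.5 for Abat, 379.6 for Gabbr1 and 133 for Gabbr2. Rescaled over nuclear protein-coding genes they were 203.8, 77.6, 64.9, 159.4, 115.8, 584.6 and 196.2. From single libraries they ran from 93.9 to 94.3, 35.6 to 36.1, 29.2 to 30.8, 72.2 to 75.0, 52.7 to 54.3, 266.4 to 273.4 and 90.0 to 91.2. No log2 ratio between whole genes changed sign. Gad1 over Gad2 was 1.01 by the FASTQ-based route, 1.37 with a pseudocount of 1 TPM, 0.22 from counts not divided by length and 1.09 on protein-coding transcripts. It was 0.20 and, FASTQ-based, 0.91 for full coding length, -0.59 from counts of those transcripts not divided by length, which is the opposite direction, 0.96 and 0.95 for the sum with Gad1-206, and 1.38 to 1.40 from single libraries. Slc32a1 over Gad1 was -1.21 FASTQ-based, -1.39 from counts, -1.18 on protein-coding transcripts and -0.29 on full coding length, and -1.69 to -1.61 from single libraries. Slc32a1 over Gad2 was -0.20, -1.17 and -0.085 under the first 3 of these settings, and -0.28 to -0.23 from single libraries. Slc6a11 over Abat was 0.32 from counts and 0.41 to 0.51 from single libraries. Gabbr1 over Gabbr2 was 1.51, 0.80 and 1.46 under those 3 settings, 1.10 and, FASTQ-based, 1.04 on full coding length, and 1.55 to 1.60 from single libraries. The 1b over the 1a form of Gabbr1 was 2.79 FASTQ-based, 2.23 from counts and 2.55 to 2.68 from single libraries. The cause was not tested, beyond the lengths and transcripts that each setting itself leaves out.

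The Gad1 share on the full coding length was 84.5% FASTQ-based, 56.3% of counts and 38.0% to 39.8% from single libraries. The protein-coding share of Gabbr1, 91.4%, was 94.5%, 98.4% and 90.4% to 92.5% under the same settings, and the share of its 1b start, 61.7%, was 73.9% of counts and 60.3% to 63.1% from single libraries. The count of the 7 genes called stayed at 0 under library totals, DESeq2 size factors, a lower filter, FASTQ-based counts and edgeR's exact test. Pathway calls ranged from 8 to 10 under the first 4 of these and were 0 by edgeR's exact test. Pathway genes detected numbered 24 to 28 over thresholds, routes and single libraries (27 and 28). The log2 ratio of Gabbr2 between the libraries, 0.00145, became -0.00488 under library totals. The settings on full coding length, the sum of Gad1-201 and Gad1-206 and the alternatives for the 1b over the 1a form were added after seeing the data. No library test is left without either replicate. No paired analysis was possible because there is 1 group. Depth limits the short and rare models: Gad1-204 rests on 142 and 160 counts and Gad1-205 on 83.6 and 56.2.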
